A study of Rattus norvegicus with 19 samples.

Results

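The acute phase proteins described here are the products of 10 genes: Crp, Saa4, Hp, Hpx, Orm1, A2m, Fga, Fgb, Fgg and Serpina1. Every non-control probe named for one of them was taken, which gave 15 probes of 41012 on the array, for 10 of 17717 named genes. All 15 were among the 25292 probes that passed the filter on dim signals, and all 15 were well above background in both channels on 19 of 19 arrays. Crp, Saa4 and Fgg had 2 probes each, Fgb had 3 and the other 6 genes had 1. Where a gene had several probes they are numbered by falling mean brightness. Brightness depends on the probe as well as on the RNA, so levels are compared between livers for 1 probe and never between probes.

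The livers came from 19 male Wistar rats, a wild-type outbred stock. The rats were 8 weeks old when the diets began and ate them for 4 months. Control rats (n = 7) ate a low fat diet with 70% of its energy from carbohydrate, 10% from fat and 20% from protein. High protein rats (HP, n = 6) took 45% of their energy from protein, most of it casein, 45% from carbohydrate and 10% from fat, so protein stood in for carbohydrate. High fat rats (HF, n = 6) took 60% from fat, with 20% each from protein and carbohydrate. All rats were housed singly under lights that came on in the evening, and were killed fed, early in the morning. RNA of each liver carried the red dye Cy5 and was hybridised against an equimolar pool of liver RNA that carried the green dye Cy3. A value below is the log2 ratio of a liver to that pool, so 0 means as bright as the pool, and a difference between diets is a difference of mean log2 ratios. Dyes were not swapped, so only differences between livers are read, not whether a liver lies above the pool.

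Hepatocytes make the acute phase proteins and secrete them into the blood. During infection or injury, interleukin 6 and interleukin 1 from macrophages act on hepatocytes through STAT3, C/EBP and NF-kB factors, and the positive acute phase proteins rise while albumin, transthyretin and other negative ones fall. Species differ in which protein responds most. In the rat, alpha-2-macroglobulin (A2m) and alpha-1-acid glycoprotein (Orm1) are strong responders, whereas C-reactive protein (Crp) is abundant in healthy animals and serum amyloid A4 (Saa4) is a constitutive member of its family.

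All 12 hepatocyte markers examined were well above background on 19 of 19 arrays. So were all measured Kupffer cell, neutrophil, stellate cell, cholangiocyte and red cell markers, so detection alone does not single out hepatocytes. A liver RNA sample holds several cell types, and fewer cells of a type cannot be told apart from less RNA per cell. The arrays lay on 5 slides, each scanned in its own session, with 3 or 4 arrays per slide. Control livers were on all 5 slides, HP livers on slides 1, 4 and 5 and HF livers on slides 1, 2 and 3, so HP and HF shared only slide 1. One array stood apart. Control 6, the only control on slide 5, had a median log2 ratio of 2.81 over the 4 measured lymphocyte markers (Cd3d, Cd3g, Cd8a and Cd79b of 14 listed), against -1.36 to -1.15 in the other controls, -1.38 to -1.10 in the HP livers and -1.38 to -1.21 in the HF livers, and its log ratios had an SD of 0.37 against 0.18 to 0.24 on the other arrays. Without this liver 1 member probe was called in HP against Control (Crp probe 2) and 1 in HF against Control (Saa4 probe 2), and no member probe's difference in these 2 comparisons changed sign.

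**Figure D1:**
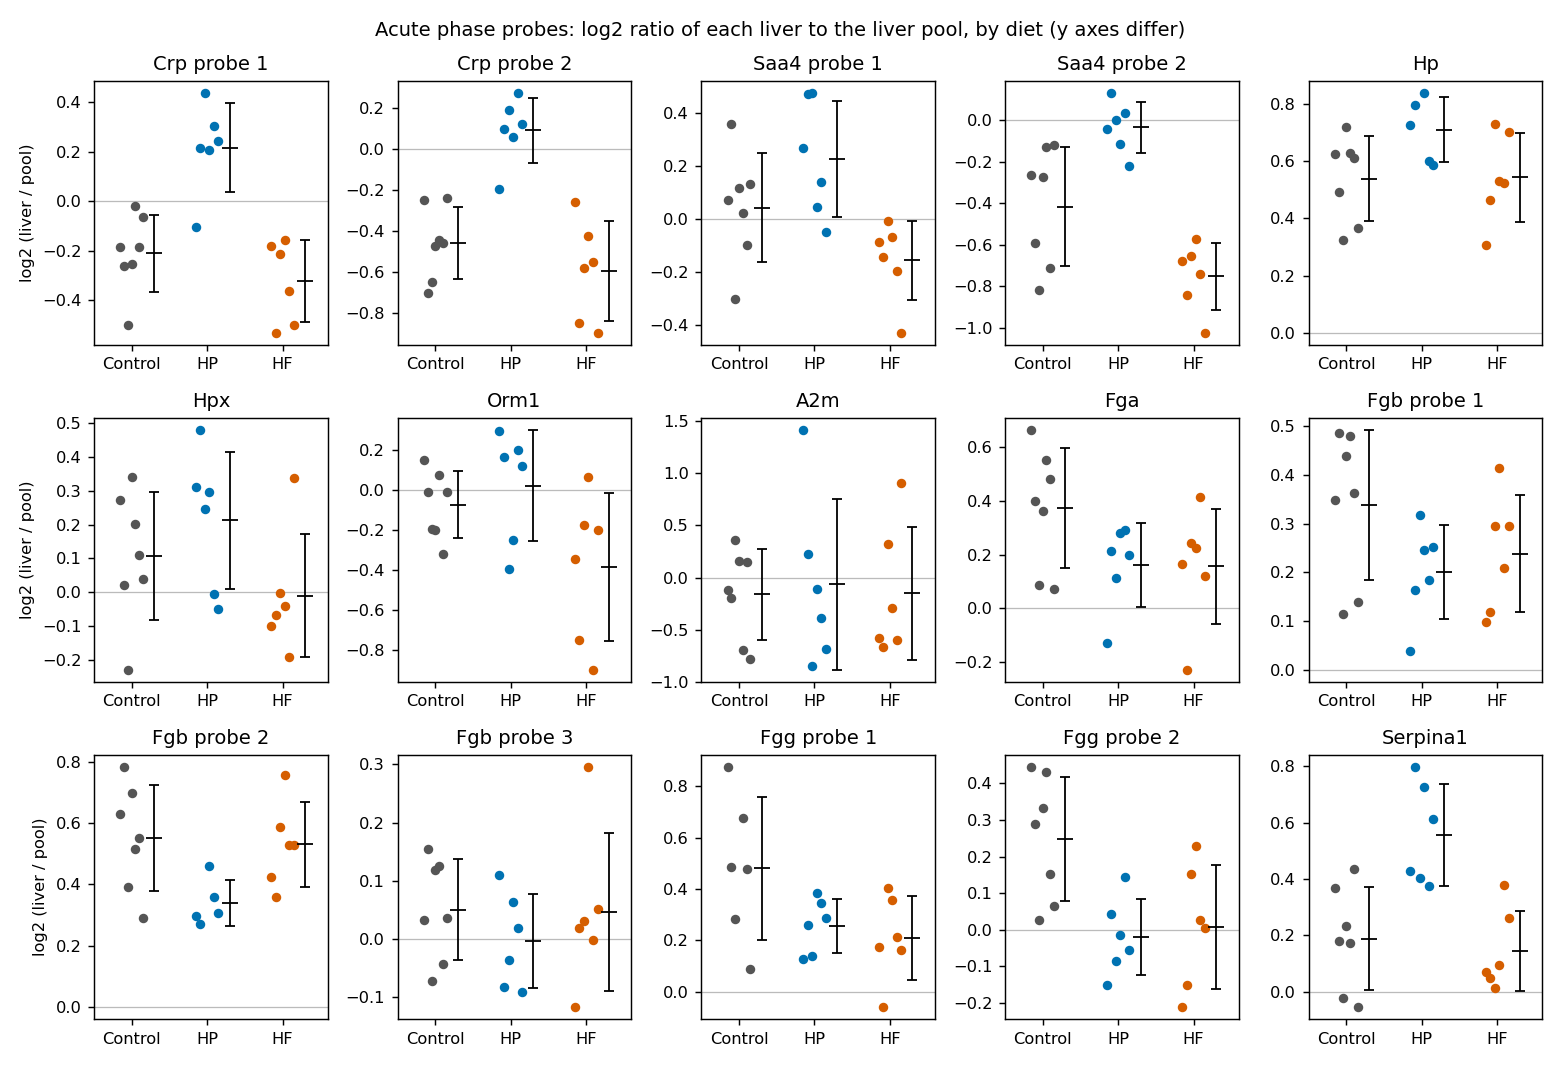
Log2 ratio of each liver to the liver pool (y axis, a separate scale in each panel) for the 15 acute phase probes, by diet (x axis); each point is 1 liver and the bar beside it is the mean with 1 SD. HP livers have the highest mean for every probe outside fibrinogen, and control livers for all 6 fibrinogen probes. A2m is the most scattered.

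The order of the diet means divided the members. For 7 probes (both of Crp, both of Saa4, Hpx, Orm1 and Serpina1) the diet means ran HP, then Control, then HF from high to low. For the 6 probes of the fibrinogen chains the Control mean was the highest. Hp and A2m had their highest mean in HP and their lowest in Control. The F test over the 3 diets, from limma with Benjamini-Hochberg adjustment over all 25292 probes, passed at an adjusted p under 0.05 for 4 of the 15 probes, where 6.58% of all probes passed. These were Crp probe 1 (adjusted p = 0.00219), Crp probe 2 (0.00088), Saa4 probe 2 (0.00182) and Serpina1 (0.015). Saa4 probe 1 and Fgg probe 2 missed the threshold at 0.0801 and 0.0768.

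The first comparison asks what a larger share of protein in place of carbohydrate did. Crp, which encodes a pentraxin that binds phosphocholine on damaged cells and bacteria, was the only member to pass in HP against Control, and both of its probes rose. For Crp probe 1 the control livers ran from -0.50 (Control 3) to -0.02 (Control 5) around a median of -0.18, and the HP livers from -0.10 (HP 1) to 0.44 (HP 3) around 0.23. The groups touched through HP 1 alone, and the other 5 HP livers lay above every control liver. Crp probe 2 ran from -0.70 to -0.24 in controls (median -0.46) and from -0.20 to 0.27 in HP (median 0.11). Here the groups did not overlap, which was true of 0.783% of all probes. The HP mean was higher than the Control mean by 0.43 ± 0.09 (SE) for probe 1, a 1.34-fold difference, and by 0.55 ± 0.10 for probe 2, a 1.46-fold difference. With limma's moderated test the adjusted p was 0.0389 and 0.0259. These 2 calls of 15 stand beside a background of 0.447%, the share of all probes called in this comparison. The probes lie in Crp at chr13:88703058-88703117 and chr13:88702243-88702302 of the rat build rn4 in the scanner files, and their log ratios rose and fell together over the livers (Pearson r = 0.943, n = 19).

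The Crp difference was in the same direction on each slide that held both diets. For probe 2 it was 0.18 on slide 1 (2 HP livers and 1 control), 0.53 on slide 4 (2 and 2) and 0.61 on slide 5 (2 and 1). The only control on slide 5 is Control 6, the array that stood apart. For probe 1 the 3 values were 0.23, 0.30 and 0.53. With slide as a block in the fit the differences were 0.34 and 0.42, and neither passed (adjusted p = 0.102 and 0.0954). With Cy5 alone they were both 0.49 (0.0715 and 0.11), and with the position of the array on its slide as a block, a setting chosen after seeing the data, 0.38 and 0.54 (0.188 and 0.0991). Of the 7 controls, 4 lay at position 3, which held 1 HP liver and no HF liver. Probe 1 also did not pass with the scanner's processed signals (0.40, adjusted p = 0.0726). Without Control 6 they were 0.43 and 0.55, with an adjusted p of 0.0528 for probe 1 and 0.0385 for probe 2. Omission of a single liver ended the call of probe 2 for 5 of 19 livers (Control 2, HP 2, HP 4, HP 5 and HP 6) and that of probe 1 for 11 of 19 (Control 1, 2, 3, 4 and 6, HP 2 to HP 6, and HF 5). Over these omissions the difference stayed between 0.51 and 0.61 for probe 2, with adjusted p from 0.0123 to 0.0711, and between 0.38 and 0.49 for probe 1, with adjusted p from 0.022 to 0.0947.

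Serpina1 encodes alpha-1-antitrypsin, the main inhibitor of neutrophil elastase in blood. Its control livers ran from -0.05 to 0.44 (median 0.18) and its HP livers from 0.37 to 0.80 (median 0.52). All 6 HP livers lay above the control median and 3 of them above every control liver. The difference of 0.37 ± 0.09 (SE) did not pass (adjusted p = 0.0793, limma). It did pass in the values the authors deposited as a normalised matrix, where it was 0.54 (adjusted p = 0.0334), and with the background model fitted to every spot, where it was 0.47 (0.0419). The difference did not pass with Cy5 alone (0.31, adjusted p = 0.147), with slide as a block (0.34, 0.153) or without Control 6 (0.41, 0.0527). Nor did it with array position as a block (0.46, 0.0616). Its size differed between slides, from 0.07 on slide 5 to 0.53 on slide 4. The only control on slide 5 is Control 6, which had the highest Serpina1 value of the controls.

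The Saa4 product is an apolipoprotein of high density lipoprotein. For Saa4 probe 2, control livers ran from -0.82 (Control 3) to -0.12 (Control 7) with a median of -0.27, and HP livers from -0.22 (HP 6) to 0.13 (HP 2) with a median of -0.02. The 3 lowest controls, Control 2, 3 and 6, lay apart from the other 4. The difference of 0.38 ± 0.11 (SE) did not pass (adjusted p = 0.123, limma), but without Control 7 it was 0.43 and did (0.0495), and without Control 6 it was 0.33 (0.168). Saa4 probe 1 differed by 0.18 ± 0.10 (adjusted p = 0.436). Probe 1 lies at chr1:97278453-97278512 and probe 2 at chr1:97280209-97280268 on the minus strand of rn4, and over 19 livers they correlated at r = 0.785.

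The remaining members did not pass in HP against Control. Haptoglobin (Hp), which binds free haemoglobin, had log2 ratios of 0.73, 0.80, 0.84, 0.60 and 0.59 in HP livers 1, 2, 4, 5 and 6, while the spot of HP 3 was dropped as an outlier by the scanner software. Its controls ran from 0.32 to 0.72, and the difference was 0.17 (adjusted p = 0.354, limma). Hemopexin (Hpx), which binds free haem, differed by 0.11, the alpha-1-acid glycoprotein gene Orm1 by 0.09 and A2m by 0.10, with adjusted p from 0.668 to 0.914. Over the 15 probes, 9 had a higher mean in HP and 6 a lower one, and the median difference was 0.10 where that of all 25292 probes was -0.01. At an unadjusted p under 0.05 there were 6 of 15, beside 14.4% of all probes.

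All 6 probes lower in HP than in Control belonged to fibrinogen. Fibrinogen is a hexamer of paired alpha, beta and gamma chains encoded by Fga, Fgb and Fgg, and thrombin turns it into the fibrin of a clot. The genes lie side by side on rat chromosome 2, where the rn4 positions of their first probes are chr2:174732484-174732543 (Fgg), chr2:174751982-174752041 (Fga) and chr2:174768230-174768289 (Fgb, on the minus strand). Fgg probe 2 ran from 0.03 to 0.44 in controls (median 0.29) and from -0.15 to 0.15 in HP (median -0.03). The groups overlapped, but 4 of the 6 HP livers were below every control and none was above the control median. The difference was -0.27 ± 0.08 (SE), with an unadjusted p of 0.00413 and an adjusted p of 0.145 (limma). Fga ran from 0.07 to 0.66 in controls and from -0.13 to 0.29 in HP, a difference of -0.21 (adjusted p = 0.374). The others were Fgg probe 1 at -0.22, Fgb probe 2 at -0.21, Fgb probe 1 at -0.14 and Fgb probe 3 at -0.05. No HP liver lay above the control median for 5 of the 6 probes, Fgb probe 3 being the exception, and no probe passed. The 6 probes read 3 genes in the same livers, and the share of all probes with this pattern was not counted. Over the other settings and omissions, the differences ran from -0.27 to -0.04 for Fga and -0.18 to 0.03 for Fgb probe 1. Both upper ends came with the deposited values. Those of Fgg probe 1 (-0.33 to -0.03) and Fgb probe 2 (-0.27 to -0.03) were nearest 0 with Cy5 alone. That of Fgg probe 2 ran from -0.31 to -0.11.

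The start regions of the fibrinogen genes are shown because the log ratios of these 3 neighbouring genes varied together over the livers. These are the 200 bases before each annotated start in the RefSeq table of the rat build GRCr8, and capitals mark a searched motif: CTGGGAA, the core of the type II interleukin 6 response element bound by STAT3, in Fgb and Fgg, and TTNNGCAA, a C/EBP motif, in Fga.
Fgb: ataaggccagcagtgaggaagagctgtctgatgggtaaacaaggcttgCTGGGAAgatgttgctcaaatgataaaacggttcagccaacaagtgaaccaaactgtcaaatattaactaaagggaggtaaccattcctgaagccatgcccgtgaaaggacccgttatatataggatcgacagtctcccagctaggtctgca
Fgg: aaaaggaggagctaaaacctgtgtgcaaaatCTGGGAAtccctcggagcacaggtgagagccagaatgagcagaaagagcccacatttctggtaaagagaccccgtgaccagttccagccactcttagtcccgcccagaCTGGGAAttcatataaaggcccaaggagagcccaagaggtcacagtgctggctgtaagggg
Fga: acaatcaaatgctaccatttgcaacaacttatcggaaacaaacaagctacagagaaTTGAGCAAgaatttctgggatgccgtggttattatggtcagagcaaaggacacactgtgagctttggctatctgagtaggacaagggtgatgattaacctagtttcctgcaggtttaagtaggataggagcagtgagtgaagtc
They lie at chr2:170700876-170701075 (minus strand), chr2:170652883-170653082 (plus strand) and chr2:170671969-170672168 (plus strand, the first of 2 annotated starts). The table's 300-base windows around the start of 7 members (Crp, Hpx, Orm1, Fga, Fgb, Fgg and Serpina1) were searched on both strands, while A2m, Saa4 and Hp were not searched. CTGGGAA was present in 2 of the 7, beginning at -152 in Fgb and at -169 and -61 in Fgg, and in 11.3% of 33465 rat promoters. TTNNGCAA was present in 4 of the 7 (Hpx, Orm1, Fga and Fgb) and in 10.6% of promoters, and the HNF1 motif GTTAAT in Fga and Fgb and in 7.44%. No printed motif overlapped another. The TATA box letters TATAAA were present in Crp, Orm1 and Fgg and in 14.2% of promoters. They began at -35 in Orm1 and -50 in Fgg, but at the annotated start itself in Crp, not upstream of it. The NF-kB motif was present in 0 of the 7 and in 7.52%. Such matches describe letters and were not tested for binding.

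**Figure D2:**
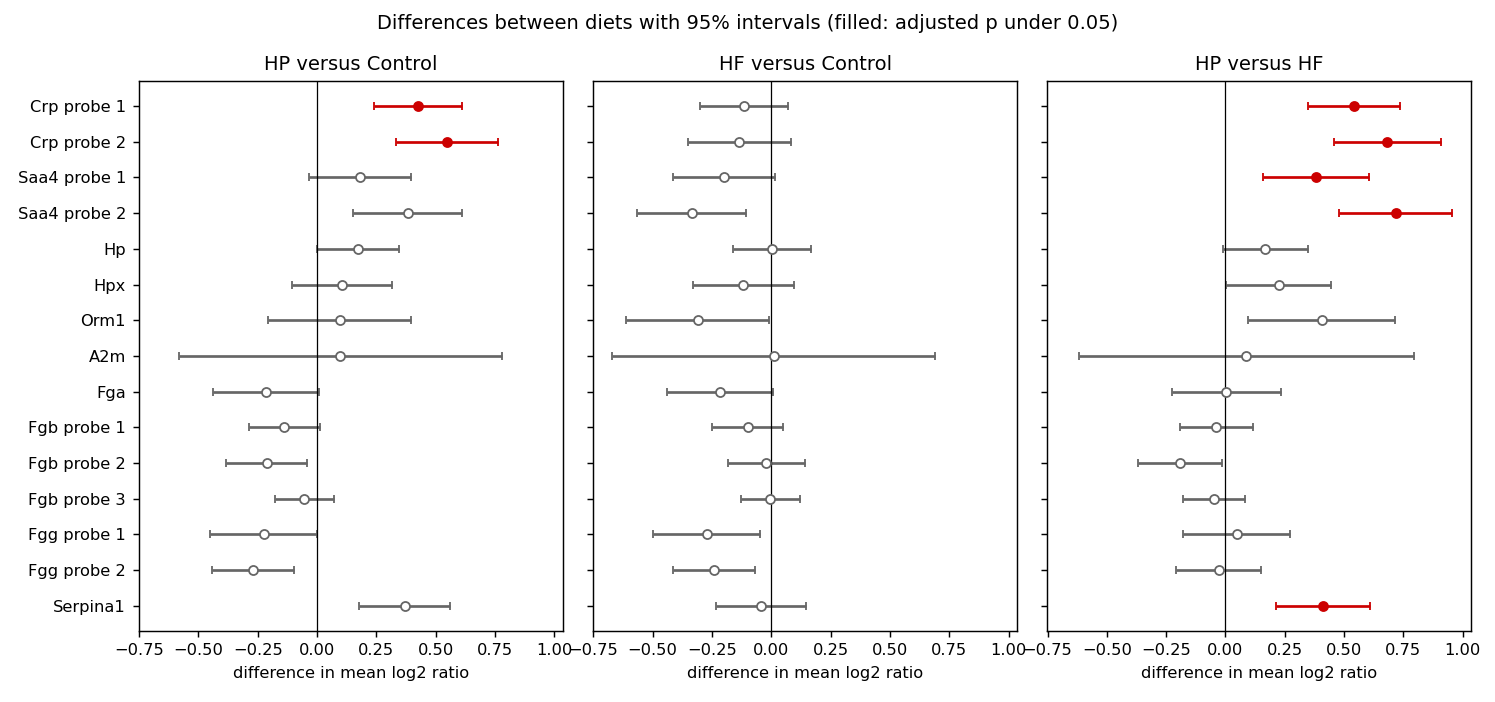
Difference in mean log2 ratio (x axis) for each acute phase probe (y axis) in the 3 comparisons, with 95% intervals from the fit over 19 livers; filled red points have an adjusted p under 0.05. The filled points are the 2 Crp probes in HP against Control, and both Crp probes, both Saa4 probes and Serpina1 in HP against HF, while every fibrinogen point is open.

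Replacing carbohydrate with fat left no member past the threshold. In HF against Control, 0 of 15 probes were called by limma at an adjusted p under 0.05, where 3.46% of all 25292 probes were called (1.72% higher and 1.73% lower). At an unadjusted p under 0.05 there were 4 of 15 (15.7% of all probes): Saa4 probe 2, Orm1 and both Fgg probes, all lower in HF. A lower mean in HF was found for 13 of the 15 probes, with a median difference of -0.12 beside -0.01 for all probes. Saa4 probe 2 ran from -1.02 (HF 6) to -0.57 (HF 4) in HF with a median of -0.71, so every HF liver was below the control median of -0.27. Its difference was -0.34 ± 0.11 (SE; adjusted p = 0.11). It passed when Control 3 (-0.40, adjusted p = 0.0342) or Control 6 (-0.39, adjusted p = 0.0482) was left out, both of which are among its 3 lowest controls. On the shared slides it was -0.42 on slide 1, -0.31 on slide 2 and 0.04 on slide 3, where Control 3 is the only control.

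Orm1 had a wide spread in HF, from -0.90 (HF 5) to 0.07 (HF 4) with a median of -0.27, against -0.32 to 0.15 in controls (median -0.01). Its difference was -0.31 ± 0.14 (SE; adjusted p = 0.299, limma). The fibrinogen chains were again lower, and the differences were -0.27 for Fgg probe 1, -0.24 for Fgg probe 2, -0.22 for Fga and -0.10 for Fgb probe 1, while those of Fgb probes 2 and 3 were -0.02 and -0.004. Fgg probe 2 alone passed when Cy5 was used without the pool channel (-0.29, adjusted p = 0.0432). HP and HF were both set against the same control livers, so a low fibrinogen difference in both is not 2 separate observations. Crp differed by -0.11 and -0.13, with 95% intervals of -0.30 to 0.07 and -0.35 to 0.08, and Serpina1 by -0.04 (-0.23 to 0.15). Hp and A2m were within 0.01 of no difference, with 95% intervals of -0.16 to 0.17 and -0.67 to 0.69.

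The HP and HF livers differed most. In this comparison 5 of 15 probes were called, all higher in HP, beside a background of 7.08% of all probes called in either direction, 3.81% higher and 3.27% lower. They were both Crp probes, both Saa4 probes and Serpina1. Crp probe 1 ran from -0.53 (HF 2) to -0.16 (HF 4) in HF around a median of -0.29, wholly below the HP range of -0.10 to 0.44. Crp probe 2 ran from -0.89 to -0.26 in HF around -0.57, wholly below -0.20 to 0.27. The differences were 0.54 ± 0.09 (SE; 1.45-fold, adjusted p = 0.00118, limma) and 0.68 ± 0.11 (1.60-fold, adjusted p = 0.000502). Saa4 probe 2 gave the largest difference of the 15. Its HF range of -1.02 to -0.57 was wholly below its HP range of -0.22 to 0.13, and the difference was 0.72 ± 0.11 (1.64-fold, adjusted p = 0.000562). Saa4 probe 1 differed by 0.38 ± 0.11 (1.30-fold, adjusted p = 0.0341), with 5 of 6 HP livers above every HF liver. Groups did not overlap for 3 of the 15 probes, beside 4.98% of all probes.

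Serpina1 ran from 0.01 (HF 3) to 0.38 (HF 5) in HF around a median of 0.08, against 0.37 to 0.80 in HP. All HP livers but HP 5 lay above every HF liver, and the difference was 0.41 ± 0.09 (SE; 1.33-fold, adjusted p = 0.0109, limma). Orm1 was higher in HP by 0.40 ± 0.15 and Hpx by 0.22 ± 0.11, and neither passed (adjusted p = 0.113 and 0.238). The fibrinogen probes, by contrast, lay between -0.19 and 0.05 and 4 of the 6 were below 0. Fgb probe 2 was the lowest, at -0.19 ± 0.08 (adjusted p = 0.197), and no HP liver with a value reached the HF median. For Fga the difference was 0.004 with a 95% interval of -0.23 to 0.24. Across the 15 probes the median difference was 0.17, beside -0.001 for all probes, and 8 of 15 had an unadjusted p under 0.05, beside 20.2%.

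Omission of a single liver ended none of the calls of Crp probes 1 and 2, Saa4 probe 2 or Serpina1 in HP against HF. That of Saa4 probe 1 was lost without HP 1, HP 2, HP 3, HF 2, HF 5 or HF 6, with adjusted p up to 0.0855. Without Control 6 all 5 calls stood. With slide as a block none passed: the differences were 0.31 and 0.42 for Crp, 0.33 and 0.55 for Saa4 and 0.39 for Serpina1, with adjusted p from 0.0527 to 0.319. With Cy5 alone Serpina1 did not pass (0.31, 0.0544), and with array position as a block Saa4 probe 1 did not (0.37, 0.0548). Most of the HP and HF livers were on different slides, so that fit rests largely on the controls that link them. On slide 1, which held 2 HP livers and 1 HF liver, HP was higher by 0.23 and 0.19 for Crp probes 1 and 2, by 0.60 for Saa4 probe 2 and by 0.51 for Serpina1.

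**Figure D3:**
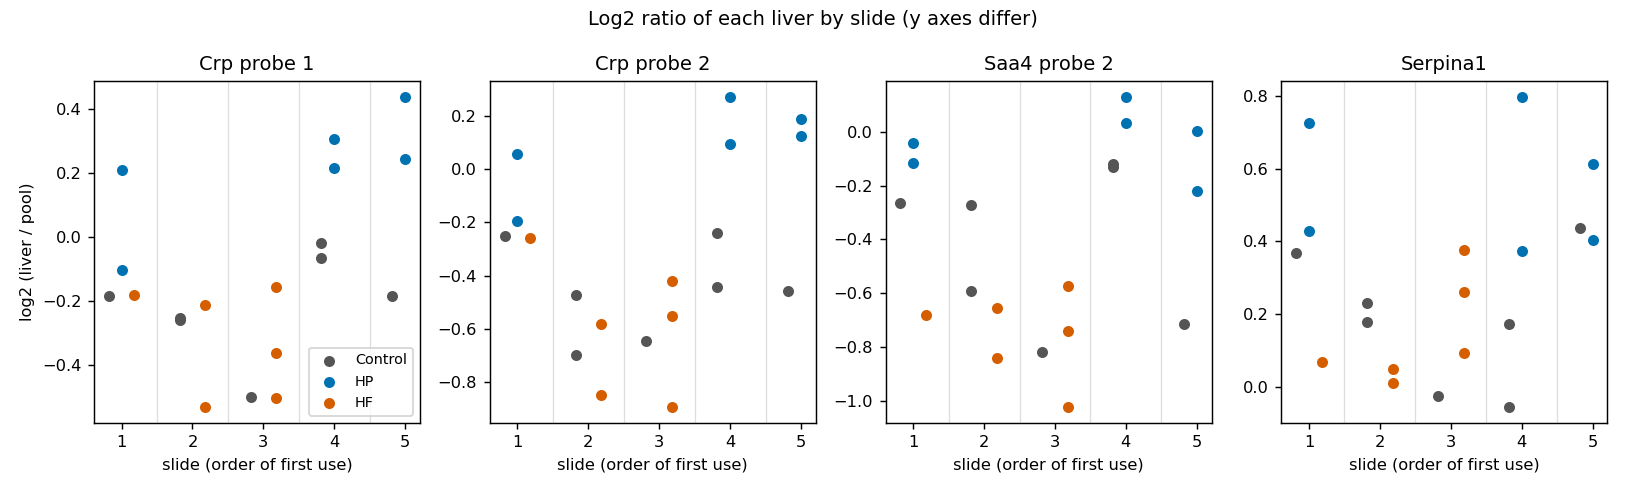
Log2 ratio to the pool (y axis, a separate scale in each panel) of each liver by slide (x axis) for 4 probes, with Control in grey, HP in blue and HF in orange. HP livers are on slides 1, 4 and 5 and HF livers on slides 1, 2 and 3, so the diets meet only on slide 1, where both HP points lie above the HF point in every panel.

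Other secreted products of hepatocytes also differed between HP and HF. Among 16 measured negative acute phase genes of 18 listed, transthyretin (Ttr) was higher in HP by 0.33 (adjusted p = 0.00286, limma) and albumin (Alb) by 0.41 (0.027). Of the rest, 7 had a lower mean in HP, among them Apoa1 (-0.40, adjusted p = 0.122), and none of these passed. Without Control 6, Fetub passed too (0.32, adjusted p = 0.039). In HF against Control the list gave 1 call, Apoa4, an apolipoprotein of intestine and liver, which fell by 1.11 on the log2 scale (0.000608). In HP against Control the list gave none, with 5 at an unadjusted p under 0.05, beside 14.4% of all probes. The shares of all probes called were 0.447% in HP against Control, 3.46% in HF against Control and 7.08% in HP against HF. The median differences of the list were 0.00086 in HP against Control, -0.06 in HF against Control and 0.11 in HP against HF. Of the 12 hepatocyte markers, Cps1 (0.62, adjusted p = 0.0325) and Hpd (0.77, 0.0116), enzymes of the urea cycle and of tyrosine breakdown, rose in HP against Control, and Cps1, Ttr and Alb in HP against HF. Without Control 6, Cps1 did not pass in HP against Control (0.55, adjusted p = 0.0524). In that fit Apob, Apoa1 and Hnf4a were lower in HP than in Control (-0.16, -0.09 and -0.09) and the other markers higher. Apob, Apoa1, Hnf4a and Tdo2 were lower in HP than in HF (-0.27, -0.40, -0.09 and -0.02). None of these lower values passed. The median log2 ratio over the list ran from 0.03 to 0.32 in Control, 0.13 to 0.49 in HP and 0.12 to 0.29 in HF, and its part in the Crp, Saa4 and Serpina1 differences was not tested.

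Other positive acute phase genes mostly did not pass. Of 28 measured of 35 listed, 1 was called in HP against Control, Nnmt, a methyltransferase of nicotinamide, which rose by 0.73 (adjusted p = 0.0164, limma). In HF against Control 1 was called, Ambp, the precursor of alpha-1-microglobulin and bikunin, which fell by 0.37 on the log2 scale (0.00858). In HP against HF there were 3: Nnmt (0.89) and Ambp (0.30) rose, and Vnn1, a pantetheinase and PPAR-alpha target, fell by 1.53 on the log2 scale. The complement gene C3 differed by 0.03 and 0.10 in the comparisons with Control, with adjusted p of 0.916 and 0.7. Lipocalin 2 (Lcn2) differed by 0.26 and 0.32, also without passing. In HP against Control the smallest p after Nnmt belonged to genes lower in HP, none of which passed. They were Fn1 (-0.33, adjusted p = 0.106, limma), Vnn1 (-0.77, 0.134) and Serpina3n (-0.18, 0.324). Next came Kng1 and Kng2, which were higher in HP (0.46 and 0.45, adjusted p = 0.335 and 0.34). The median differences were -0.06, 0.04 and -0.08 in HP against Control, HF against Control and HP against HF. The shares of all probes called in these comparisons were 0.447%, 3.46% and 7.08%.

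Of the receptors, signalling proteins and transcription factors of the response, 26 of 28 were measured and only Creb3l3 passed in any comparison. It encodes a liver transcription factor, freed from the endoplasmic reticulum membrane, that is known to act on Crp and Apcs. It was higher in HF than in Control by 0.41 (adjusted p = 0.0465, limma, and 0.0568 without Control 6). It was lower in HP than in HF by 0.61 (0.00286). The part of Creb3l3 in the Crp differences was not tested. The STAT3 feedback inhibitor Socs3 differed by 0.26 in HP and 0.22 in HF against Control, with adjusted p of 0.181 and 0.219, and Stat3 itself by -0.06 and -0.15 (0.747 and 0.347). Inflammatory cytokines gave 6 measured genes of 12 listed and no call in any comparison. At an unadjusted p under 0.05 there were 2 in HP against Control, 0 in HF against Control and 2 in HP against HF. The shares of all probes at that limit were 14.4%, 15.7% and 20.2%, and the shares called were 0.447%, 3.46% and 7.08%. Without Control 6, Il18 passed in HP against HF (0.38, adjusted p = 0.0467). Il6 and Tnf did not pass the filter on dim signals. None of the 9 measured Kupffer cell and macrophage markers of 12 listed passed in any comparison by limma, and none had an unadjusted p under 0.05. Of 9 measured stellate cell and fibroblast markers of 10 listed, Rgs5 rose in HP (0.45, adjusted p = 0.0216, limma) and in HF (0.60, 0.000394) against Control, and Reln rose in HF (0.52, 0.00375). Reln was also lower in HP than in HF by a log2 difference of -0.35 (0.0433). Other markers of this list went the other way against Control, without passing. Without Control 6, Lrat, Pdgfrb and Col3a1 were lower in HP (-0.18, -0.08 and -0.06). In HF, Dcn, Pdgfrb and Lrat were lower (-0.10, -0.09 and -0.05), and the remaining markers were higher in each comparison. The median log2 ratio over that list ran from -0.17 to 0.54 in Control, -0.05 to 0.27 in HP and -0.17 to 0.57 in HF, and its part in the members' differences was not tested.

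The members also varied from rat to rat within a diet, and A2m varied most. Its log2 ratios ran from -0.85 (HP 3) to 1.41 (HP 1), a 4.79-fold range over 19 livers, and its SD exceeded that of 98.2% of all probes. Both extremes were HP livers. The next highest was HF 6 at 0.91, and the controls stayed between -0.78 and 0.36. The pooled SD within diets was 0.64, against 0.10 to 0.28 for the other probes, and the 95% interval of HP minus Control ran from -0.58 to 0.78. That difference of 0.10 was -0.20 without HP 1. HP 1, the liver with the highest A2m, was the lowest HP liver for both Crp probes, Fga, Fgb probe 1 and both Fgg probes, and the highest for Orm1 and Fgb probe 3.

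**Figure D4:**
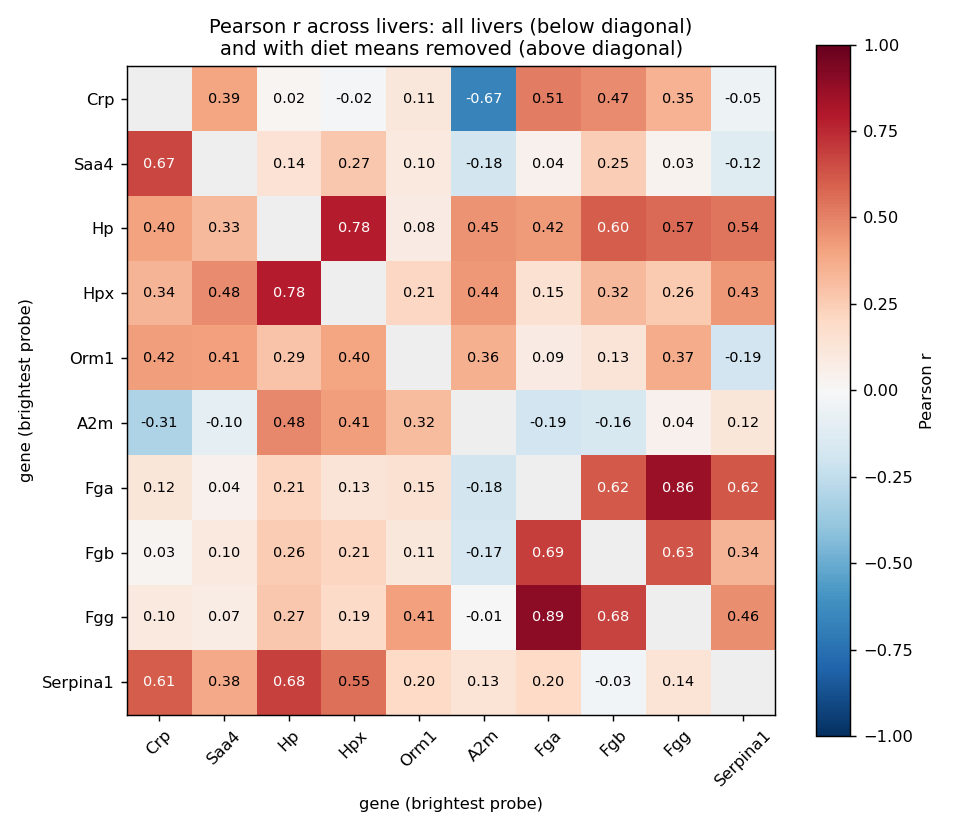
Pearson r between the brightest probes of each pair of the 10 genes (rows and columns) across 18 or 19 livers, below the diagonal for all livers and above it after removal of diet means. The highest values are Fga with Fgg (0.89) and Hp with Hpx (0.78), both nearly as high above the diagonal (0.86 and 0.78).

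Relations among members were examined for all 45 pairs of genes, with Pearson's r and Spearman's rho, a two-sided permutation test of 100000 resamples, and Benjamini-Hochberg adjustment over the pairs. The livers share the pool, and those on a slide share its hybridisation. Livers were permuted freely across diets and slides, so a p-value also counts shifts that 2 genes share by diet or slide. No p-value was computed with diet or slide means removed. Of the 45 values of r, 39 were positive and 5 passed with both measures. The fibrinogen chains made up 3 of these. Fga and Fgg gave r = 0.891 and rho = 0.874 (18 livers; both permutation p = 1e-05, the smallest the test can give, adjusted 0.00045). Fga and Fgb gave r = 0.693 and rho = 0.691 (19 livers; permutation p = 7e-04 and 0.00123, adjusted 0.0105 and 0.0173), and Fgb and Fgg r = 0.677 and rho = 0.705 (18 livers; permutation p = 0.00178 and 0.00154, adjusted 0.0161 and 0.0173). With diet means removed the 3 values of r were 0.861, 0.617 and 0.629. With slide means removed they were 0.906, 0.798 and 0.809, and without the 2 livers farthest from the median of the first gene 0.812, 0.711 and 0.584. With each array scaled to its median, the pool signal varied 1.68-fold for Fga, 1.90-fold for Fgg and 1.56-fold for Fgb. The Cy5 signal of the livers varied less, by 1.57, 1.57 and 1.48-fold. The pool was the same RNA on every array, and the part of its signal in these relations was not tested.

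Hp and Hpx, the scavengers of haemoglobin and haem, gave r = 0.783 and rho = 0.789 (18 livers; both permutation p = 0.00016, adjusted 0.0036), and r was 0.784 with diet means removed, 0.791 with slide means removed and 0.723 without the 2 farthest livers. Crp and Saa4, each called at both probes between HP and HF, gave r = 0.67 and rho = 0.647 (19 livers; permutation p = 0.00186 and 0.00363, adjusted 0.0161 and 0.0327). Within diets their relation was lower, at r = 0.392, and it was 0.603 with slide means removed and 0.585 without the 2 farthest livers. Serpina1 passed by r but not by rho with Hp (0.682 and 0.579, adjusted permutation p = 0.0161 and 0.101) and with Crp (0.608 and 0.484, adjusted permutation p = 0.0365 and 0.165), and for Crp the r with diet means removed was -0.047. A2m and Crp had the lowest r, -0.311 (adjusted permutation p = 0.42), which was -0.665 with diet means removed, -0.127 with slide means removed and -0.17 without the 2 farthest livers.

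Genes outside the members were ranked by their likeness to each member, measured as Pearson r over the livers with diet means removed among 12167 named genes. Igf1, the hormone insulin-like growth factor 1, was among the 3 nearest genes of both Fga (0.851) and Fgb (0.801). Igf1 is on the list of negative acute phase genes. The complement gene C4a (0.886) and the inhibitor chain gene Itih4 (0.834), both on the list of positive acute phase genes, were the nearest to Hpx. Serpinf1, which encodes pigment epithelium-derived factor, was nearest to Crp (0.819) and Crebl2 to Saa4 (0.838). For Hp the nearest were Rnf40 (0.827) and Vtn, which encodes vitronectin (0.804), for Fgg Atp2b3 (0.831) and for Serpina1 Fbxl8 (0.777). The lowest top values were those of Orm1 with Scamp1 (0.771) and A2m with Klhdc4 (0.714). Each value is the highest of many over 18 or 19 livers and carries no test.

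**Figure D5:**
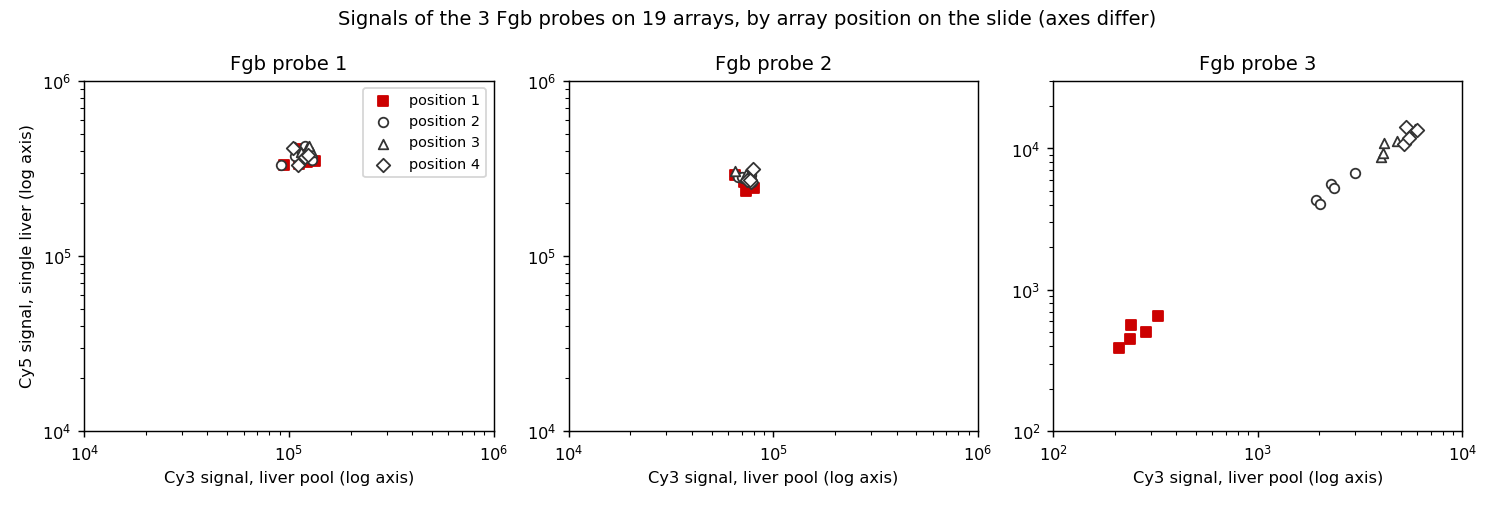
Cy5 signal of the single liver (y axis, log scale) against Cy3 signal of the liver pool (x axis, log scale) on 19 arrays for the 3 Fgb probes, with the marker giving the position of the array on its slide. For probe 3 the 5 arrays at position 1 (red squares) lie far below the others in both channels, from 210 to 6010 in Cy3 over all arrays, while probes 1 and 2 form a single cloud.

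The 3 probes of Fgb, the beta chain gene, did not behave alike as measurements. The pool was the same RNA on every array, and with each array scaled to its median the Cy3 signal of the member probes other than Fgb probe 3 varied by 1.20 to 1.90-fold over the 19 arrays. That of Fgb probe 3 varied 25.9-fold, more than for 99.8% of all probes, and its Cy5 signal varied with it by 31.3-fold. Among 25292 probes, a search made after these values were seen found this to be the only one with a Cy3 signal at least 4-fold lower on all 5 arrays at position 1 of their slides than on all others, and no probe showed this for the other 3 positions. These 5 arrays were Control 7, HP 1, HP 3, HF 2 and HF 4. Their Cy3 signals ran from 210 to 327, those at position 2 from 1920 to 2996, those at position 3 from 4020 to 5856 and those at position 4 from 5189 to 6010, so each position was narrow whatever the diet or slide. The log ratio cancelled most of this and stayed between -0.12 and 0.30. Without the pool channel, Cy5 alone put its difference at -0.86 for HP against Control and -0.81 for HF against Control, where the ratios gave -0.05 and -0.004, and none of these passed (adjusted p = 0.704 and 0.775 with Cy5 alone, limma). Fgb probe 3 is matched by its symbol only, without a position in the scanner files, and its log ratios correlated with those of Fgb probes 1 and 2 at r = 0.538 and 0.629, where probes 1 and 2 gave 0.831.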

How the data were processed

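Livers of 19 rats were measured on Agilent 2-colour arrays. The authors deposited 1 scanner file per liver, made with Agilent Feature Extraction 10.5.1.1 per the submitters' processing notes, and its spot intensity values were used here, per the file headers as mean signals with local background. A deposited matrix of log2 values was an alternative; every column has a median of 8.20, and it followed the log ratios at r of 0.91 to 0.98 per array, so its direction is that of Cy5 over Cy3, while its centring and other steps are not given in the sources used here. Because the arrays give no counts, their number limits the precision.

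From the intensities, normexp background correction (offset 50) and within-array loess were run with limma 3.58.1 in R 4.3.3. Dropped were 40 spots on 5 arrays whose background exceeded the signal by over 50, and the scanner's outlier spots, among them Hp and Fgb probe 2 in HP 3 and Fgg probe 1 in Control 4. A probe was kept if the scanner software put its Cy5 signal well above background on 6 arrays or more. One linear model over 3 diets used limma's moderated test, with Benjamini-Hochberg adjustment over all kept probes and calls at an adjusted p under 0.05. Probes were named by accession in the RefSeq table of GRCr8 (14 of the 15 member probes) or by symbol (1). The probe positions are the files' own (rn4); 2 of them, for Fgb probe 2 and Serpina1, span 242 and 933 bases where the others span 60. Each rat is 1 replicate. The brightest probe stands for a gene in relations between genes. From the pathway lists, the genes named are up to 4 with the smallest p in each comparison. C3, Lcn2, Kng1, Kng2, Socs3 and Stat3 were added after their values were seen. One listed lymphocyte marker is not reported here. The members and lists were chosen with earlier results of these data known. The fits were tested on simulated data. Alternatives were the background correction, the scanner's processed signals, Cy5 alone, the deposited matrix, probe filters, 1 probe per gene, slide, array position or replicate number as a block, and omission of each liver. The labels do not say whether the same replicate number in 2 diets marks related livers. The deviations from diet means of like-numbered livers correlated at a mean r of -0.0092 over 18 pairs (-0.219 to 0.111). Over 102 unlike-numbered pairs the mean r was 0.0011. Such a correlation over many probes cannot exclude a shared factor that moves few genes.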

Additional observations from a re-analysis of the deposited data

Results flagged for a closer look

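Dixon's test was applied to each of the 45 sets formed by a probe and a diet, and 1 of them had a liver past the critical value. For Hpx in the HF diet, HF 6 had a log2 ratio of 0.34, where the next highest HF liver had -0.003, and the gap took 0.645 of the range against a critical value of 0.625. Chance alone gives such a result in about 5% of sets. The same liver had the A2m value next to the highest of all livers, 0.91, and the lowest values of its diet for both Saa4 probes and Crp probe 2.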

How the results depend on the processing

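In HP against Control, 2 member probes were called. There were 1 with the scanner's processed signals, 0 with Cy5 alone, 1 of 10 with 1 probe per gene, 0 with slide as a fixed block, 0 with array position as a fixed block (chosen after seeing the data) and 1 with the replicate block, and 0 to 3 when single livers were left out. The counts over all probes, 113 as reported, were 61 with the background model fitted to every spot, 63 with processed signals, 53 with Cy5 alone, 24 with the slide block, 32 with the position block and 209 with the replicate block over 18 rats, and 26 to 460 with single livers left out. In HF against Control, the member count of 0 became 1 with Cy5 alone and was 0 or 1 with single livers left out, and the count over all probes, 874 as reported, was 474 with the slide block and 453 with the position block. In HP against HF, the member count of 5 became 3 of 10 with 1 probe per gene and 0 with the slide block, where the count over all probes fell from 1791 to 365. With slide as a random block (consensus correlation 0.034), 2, 0 and 5 member probes were called in the 3 comparisons. The scan session was not run as a separate block because it equals the slide. The labels do not say that like replicate numbers mark related livers, so the replicate block is not read as a paired analysis.

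No called difference changed sign under any alternative run. Uncalled ones that did were mostly near 0. In HP against Control these were Fgb probe 1 (0.027 with deposited values) and A2m (-0.0049 with the replicate block). In HF against Control, fitting the background to every spot gave A2m -0.046, Fgb probe 2 0.021 and Fgb probe 3 0.019, processed signals gave Hp -0.028, Cy5 alone gave Fgb probe 1 0.0037 and Serpina1 0.0023, and deposited values gave Fgb probe 2 0.029, Fgb probe 3 0.0039 and Serpina1 0.018. There the slide block gave Crp probe 1 0.023, Crp probe 2 9e-04, Hp -0.013 and A2m -0.40, the random slide block A2m -0.020, the position block Serpina1 0.067 and the replicate block Hp -0.025 and A2m -0.093. In HP against HF, Fgb probe 1 and Fgg probe 2 were 0.034 and 0.022 with the background fitted to every spot, 0.0185 and 0.008 with processed signals and 0.071 and 0.076 with deposited values. There Cy5 alone gave Fga -0.019 and Fgg probe 2 0.11, the slide block Fga -0.081, Fgb probe 3 0.038 and Fgg probe 2 0.010, and the random slide block Fga -0.0012. With single livers left out, the ranges that crossed 0 were -0.20 to 0.25 (A2m, HP against Control), -0.033 to 0.051 (Hp), -0.20 to 0.11 (A2m), -0.066 to 0.018 (Fgb probe 2) and -0.054 to 0.029 (Fgb probe 3) in HF against Control, and -0.21 to 0.30 (A2m), -0.073 to 0.063 (Fga), -0.082 to 0.0005 (Fgb probe 3), -0.0062 to 0.087 (Fgg probe 1) and -0.0725 to 0.016 (Fgg probe 2) in HP against HF. The cause of these changes was not tested.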
